A study of Mus musculus with 30 samples.

Results

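The effect of overexpressing TL1A in both its membrane-bound and its soluble form was compared by RNA sequencing between lung and terminal ileum in C57bl/6 mice. Mem+Sol mice overexpressed both forms. The control group is titled WT, but its genotype label adds that TL1A is expressed from the CD2 promoter, a promoter active in lymphocytes, and it was used here as the control that its title names. For each gene symbol found in both count tables, the difference between Mem+Sol and WT in the ileum was subtracted from the same difference in the lung, with lung sequencing batch as a covariate. The comparison rested on 20 of the 30 libraries: 5 WT and 4 Mem+Sol lungs (the post-caval lobe) and 5 WT and 6 Mem+Sol pieces of terminal ileum. The 10 libraries of Mem mice, which overexpressed a membrane-restricted TL1A (Delta 69-93), entered the fits mainly as a further measure of spread. The lung libraries came from 3 males and 2 females in WT and 1 male and 3 females in Mem+Sol, and the ileum libraries from 4 males and 1 female in WT and 3 males and 3 females in Mem+Sol. Lung libraries were sequenced in batches 1 and 2 and all ileum libraries in batch 3, so tissue and batch 3 cannot be told apart. Whether the libraries of a group came from separate mice is not stated in the labels, and p-values then measure only the spread between these libraries.

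TL1A, the product of Tnfsf15, belongs to the tumour necrosis factor family of cytokines. It is made as a membrane protein and can be released by cleavage. Its receptor DR3, encoded by Tnfrsf25, is found on T cells and innate lymphoid cells, where it signals through TRADD and TRAF adaptors to NF-kappaB and enhances responses that are already under way, including the type 2 response. In the gut a type 2 response is known for goblet cell products, tuft cells, eosinophils and mast cells, and in the lung for mucous cells, alternatively activated macrophages and their chemokines.

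Lung and gut markers told the 2 tissues apart in every library. Sftpc, the surfactant protein of alveolar cells, stood at 10435 CPM (counts-per-million, on normalized library sizes) or more in every lung and at most 0.132 CPM in every ileum, and Vil1, the villin of the brush border, at 649 CPM or more in every ileum and at most 1.59 CPM in every lung. Vil1, Fabp2 and Fabp6 were lower in every Mem+Sol ileum than in every WT ileum. Vil1 ran from 2260 to 3766 CPM in WT and from 649 to 1532 CPM in Mem+Sol ilea. Fabp2 ran from 1564 to 10275 and from 65.7 to 869 CPM, and Fabp6 from 4163 to 7186 and from 4.74 to 843 CPM. Lyz1 and Muc2 overlapped between these groups. Total counts ran from 23.3 M to 39.1 M counts (M for mega) in the lung. In the ileum they ran from 4.30 M to 13.2 M in WT and from 12.5 M to 36.1 M in Mem+Sol, so depth moved with genotype there. In these bulk samples fewer cells of a type and less RNA per cell cannot be told apart.

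Far more genes differed between Mem+Sol and WT in the ileum than in the lung, and few differed in both. Depth and the wall and border markers given below also moved with genotype in the ileum. Their part in the ileum calls was not tested. In edgeR's quasi-likelihood test, at a Benjamini-Hochberg adjusted p under 0.05, 133 of 15861 genes were called in the lung (0.839%; 0.517% rose and 0.322% fell) and 4289 of 14936 in the ileum (28.7%). The effect itself differed between the tissues for 3053 of 16867 genes (18.1%), with the lung effect higher for 1104 (6.55%) and lower for 1949 (11.6%). The median 95% half-width of the log2 effects was 0.24 for lung and 0.50 for ileum. The lung count moved with single libraries: 10 genes were called without Mem+Sol replicate 4, the 1 male of that group, 22 and 50 when WT replicate 2 or 5 was left out, and 498 when Mem+Sol replicate 2 was. Without the same libraries the shared response below counted 4, 7, 13 and 69 genes.

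Over the 14236 genes tested in every fit, 118 were called in the lung (0.829%), 3984 in the ileum (28%) and 52 in both. Those 52 were 44.1% of the lung genes and 1.31% of the ileum genes. Of the 52, 28 moved the same way, here called the shared response, and 24 moved in opposite directions. Another 16 genes were called in the lung and not in the ileum, with the tissue difference called and the lung effect the larger (lung-only), and 2550 were the reverse (ileum-only). A further 50 lung genes and 1382 ileum genes were called in that tissue without meeting these conditions. For 1930 of the ileum-only genes (75.7%) the 95% interval of the lung effect lay within 1.5-fold of no change. Across the 14236 genes, which are not independent, the effects of the 2 tissues had a Pearson r of 0.056 and a Spearman coefficient of -0.017.

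**Figure D1:**
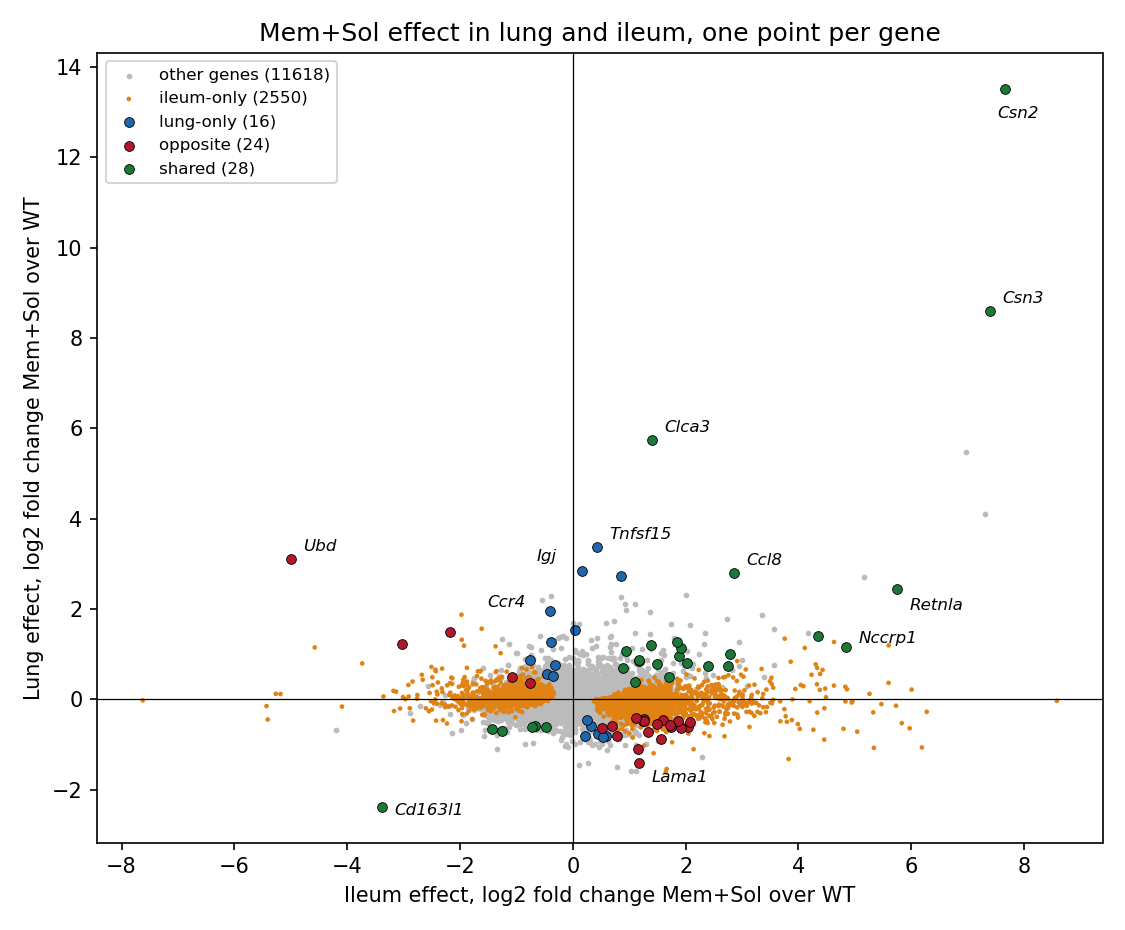
Log2 fold change of Mem+Sol over WT in the ileum (x axis) and in the lung (y axis), 1 point per gene tested in every fit, coloured by response. The 2550 ileum-only genes spread along the x axis near a lung effect of 0, while Csn2 (13.52 in the lung, 7.67 in the ileum) and Csn3 stand far out in both tissues.

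Genes called in the lung did not simply move the same way in the ileum. The 69 genes that rose in the lung had a median log2 fold change of 0.92 there and 0.67 in the ileum, where 22 of them rose and 5 fell. The 49 genes that fell in the lung had a median of 0.52 in the ileum, where 19 of them rose and 6 fell. Over all genes the ileum median was 0.01. In the other direction, the 2351 genes that rose in the ileum (16.5%) had a lung median of -0.03 and the 1633 that fell (11.5%) a lung median of -0.02.

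Tnfsf15 itself, at chr4:63724600-63745059, separated the groups in the lung and not in the ileum. Its lung levels were 8.58, 8.5, 9.94, 6.94 and 4.50 CPM in WT and 79.6, 98.2, 61.6 and 70.6 CPM in Mem+Sol. In the ileum it stood at 1.84, 7.27, 5.22, 4.81 and 5.93 CPM in WT, and from 4.56 over a median of 6.96 to 10.2 CPM in Mem+Sol. Every Mem+Sol lung lay above every WT lung, while the ileum groups overlapped. The log2 fold change was 3.37 ± 0.20 (SE, adjusted p = 1.01e-06) in the lung and 0.43 ± 0.33 (adjusted p = 0.336) in the ileum. The difference between the tissues was 2.92 ± 0.39 (adjusted p = 5.78e-05), and it was called with lung batch 1 alone (3.49, adjusted p = 0.0117) and with batch 2 alone (2.52, adjusted p = 0.0222). The level of the overexpressed gene therefore checks the labels of the lung libraries only. In the ileum the sign of its effect turned without WT replicate 1 (-0.03).

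Among the 15 genes of the TL1A and DR3 pathway, 5 had a higher lung effect and none a lower one. Over all genes the lung effect was higher for 6.55% and lower for 11.6%. The lung rise was that of Tnfsf15 alone, and in the ileum 4 members fell, where 12.1% of all genes fell. Tnfrsf25, the receptor, had a tissue difference of -0.49 ± 0.35 (adjusted p = 0.347). Relb, an NF-kappaB subunit, was at -0.00 in the lung and -1.03 in the ileum (log2, difference 1.03, adjusted p = 0.00113). Birc3, a ubiquitin ligase of the receptor complex, differed by 0.85, the adaptor Fadd by 0.58 and the protease Casp8 by 0.93. Without lung WT replicate 2 the count of higher members was 3. The median of the list was 0.05 in the lung and -0.14 in the ileum.

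The shared response was led by milk protein genes, which neither tissue is known for. Csn2, which encodes beta-casein and lies at chr5:87692619-87699429, had 0, 1, 0, 0 and 1 counts in the WT lungs and 4287, 13273, 3799 and 4937 counts in the Mem+Sol lungs. In the ileum it had 0, 0, 0, 0 and 2 counts in WT and 110, 575, 844, 231, 302 and 62 counts in Mem+Sol. Csn3, which encodes kappa-casein and lies at chr5:87925579-87932550, had no count in any WT lung, 34, 73, 43 and 47 counts in the Mem+Sol lungs, 2, 0, 0, 0 and 1 counts in the WT ilea and 136, 633, 877, 350, 270 and 27 counts in the Mem+Sol ilea. For both genes every Mem+Sol library of both tissues lay above every WT library.

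As a share of all counts of the summed libraries, Csn2 was 15570 times higher in Mem+Sol lungs (95% counting interval 4310 to 128570) and 378 times higher in Mem+Sol ilea (105 to 3123). Csn3 was 272 times higher in Mem+Sol ilea (93.0 to 1320) and at least 77.8-fold higher in the lung, taking 3 counts over the WT group as the most that 0 counts allow. These intervals cover counting error only. The fitted log2 fold changes, 13.52 and 7.67 for Csn2 and 8.60 and 7.39 for Csn3 in lung and ileum, depend on the prior count and are no bounds. Csn3 was not called in the lung when Mem+Sol replicate 4 was left out (7.80, adjusted p = 0.0703). Neither gene had the tissue difference called (adjusted p = 0.132 for Csn2 and 0.498 for Csn3). As levels, Csn2 ran from 118 to 411 CPM in Mem+Sol lungs and from 3.68 to 25.1 CPM in Mem+Sol ilea, and Csn3 from 1.13 to 2.26 CPM and from 1.60 to 23.6 CPM, so Csn2 was the higher in the lung and Csn3 mostly the higher in the ileum.

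The casein genes lie in a cluster on chromosome 5, and most of their neighbours had next to no counts. Csn3 starts 233 kb from Csn2, the enamel protein gene Amtn 683 kb and Igj, the immunoglobulin J chain gene now named Jchain, 827 kb. The 14 other genes of the stretch had at most 4 summed counts in the Mem+Sol lungs and at most 20 in the Mem+Sol ilea. Amtn, picked out after its values were seen, went from 7 summed counts in WT lungs to 386 in Mem+Sol lungs (log2 6.03 ± 0.59, adjusted p = 0.000343). In the ileum it had 1 count in WT and 0 in Mem+Sol and was not tested.

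The promoters of shared genes were searched for the 2 spacings of the palindrome bound by STAT factors, which carry signals from cytokine and prolactin receptors. The motifs were TTCNNNGAA and TTCNNNNGAA on both strands, and the windows were the 250 bases before each start in RefSeq (GRCm38.p6). Of the 22 shared genes that rose, 15 had a promoter entry, and Csn3 and Clca3 had none. TTCNNNGAA stood in 4 of the 15 (26.67%: Aldoc, Csn2, Serpina3g and Steap4) and in 8.13% of 27025 genes with a promoter entry. TTCNNNNGAA stood in 3 (20%: Csn2, Edn1 and Retnla) and in 6.757% of those genes. A gene with several entries counted if any entry matched. Promoters of the 3 leading shared genes with a match are shown with the matches in capitals, for chr5:87699426-87699675 (minus strand), chr16:48842359-48842608 (plus strand) and chr12:104235897-104236146 (plus strand). A match describes letters and does not show binding.
Csn2: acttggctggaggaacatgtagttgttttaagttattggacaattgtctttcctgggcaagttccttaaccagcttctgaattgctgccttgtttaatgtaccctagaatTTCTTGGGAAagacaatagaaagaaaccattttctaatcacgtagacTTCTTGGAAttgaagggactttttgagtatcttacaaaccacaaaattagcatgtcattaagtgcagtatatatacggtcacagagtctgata
Retnla: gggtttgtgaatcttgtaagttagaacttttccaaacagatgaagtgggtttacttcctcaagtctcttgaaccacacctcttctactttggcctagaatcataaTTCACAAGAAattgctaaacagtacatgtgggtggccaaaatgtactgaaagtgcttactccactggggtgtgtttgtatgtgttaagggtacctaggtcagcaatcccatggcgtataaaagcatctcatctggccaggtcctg
Serpina3g: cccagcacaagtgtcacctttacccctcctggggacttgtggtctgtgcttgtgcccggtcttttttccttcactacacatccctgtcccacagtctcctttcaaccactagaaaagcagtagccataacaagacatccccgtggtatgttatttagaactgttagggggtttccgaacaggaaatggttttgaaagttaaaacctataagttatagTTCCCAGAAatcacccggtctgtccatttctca

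Clca3, Retnla and Ccl8 rose in both tissues, while few members of the fixed lists of mucous cells and macrophages were called as rises. Over all genes 0.839% were called in the lung, and 16.6% rose and 12.1% fell in the ileum. Of the goblet and mucous cell genes 0 of 11 were called in the lung, and in the ileum 0 of 10 rose and 3 fell. Their lung sums ran from 111 to 212 CPM in WT and from 198 to 218 CPM in Mem+Sol. Their ileum sums ran from 17437 to 21607 CPM in WT and from 7214 to 13108 CPM in Mem+Sol. Of the macrophage genes 0 of 12 were called in the lung, and in the ileum 3 of 11 rose and 1 fell. With so few lung genes called, 0 of 11 and 0 of 12 do not show that these lists stayed level. Their lung medians were 0.53 and 0.45, against 0.005 over all genes.

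Clca3, a goblet cell product that RefSeq now names Clca1, stood at 0.825, 1.51, 2.34, 5.42 and 2.41 CPM in WT lungs and at 73.5, 135, 214 and 171 CPM in Mem+Sol lungs. In the ileum, where it is constitutive, it stood at 2926, 2259, 3893, 2137 and 3516 CPM in WT and from 4151 over a median of 8501 to 15857 CPM in Mem+Sol. The groups did not overlap in either tissue. The log2 fold change was 5.75 ± 0.69 in the lung and 1.41 ± 0.35 in the ileum, a difference of 4.47 ± 0.72 (adjusted p = 0.000241). Batch 2 alone gave 6.08 (adjusted p = 0.00176) and batch 1 alone 2.94 (adjusted p = 0.0966).

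Retnla, a resistin-like protein of alternatively activated macrophages, went the other way in size. It stood at 46.4, 45.1, 42.2, 37.0 and 69.5 CPM in WT lungs and at 249, 437, 293 and 264 CPM in Mem+Sol lungs, and at 5.12, 1.30, 0.131, 2.46 and 1.29 CPM in WT ilea and from 15.0 over 103 to 270 CPM in Mem+Sol ilea. Again no groups overlapped. The effects were 2.45 ± 0.43 and 5.75 ± 0.75, a difference of -3.29 ± 0.87 (adjusted p = 0.00996) that was not called with either lung batch alone (adjusted p = 0.095 and 0.152). It was not called in the lung when Mem+Sol replicate 4 (1.84, adjusted p = 0.246) or WT replicate 2, 3 or 5 was left out. Ccl8, a chemokine of such macrophages, was at 1.55, 1.30, 1.10, 0.812 and 0.819 CPM in WT lungs, at 8.33, 11.1, 6.33 and 7.92 CPM in Mem+Sol lungs, at 5.51, 1.56, 4.05, 2.99 and 1.22 CPM in WT ilea and from 5.88 to 53.6 CPM in Mem+Sol ilea. Its effects, 2.80 ± 0.34 and 2.86 ± 0.46, differed by -0.06 ± 0.66, with a 95% interval from -1.42 to 1.29.

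Of the 22 shared genes that rose, 7 had a larger effect in the ileum by the test of the difference, and Clca3 was the 1 with a larger effect in the lung. Beside Retnla the 7 included Nccrp1 (log2 1.16 in the lung and 4.84 in the ileum), the macrophage lectin Mgl2 (1.02 and 2.78), the chitinase-like Chil1 (0.75 and 2.76) and the fatty acid binding Fabp5 (0.81 and 2.03). Genes without a called difference included Tnip3, an inhibitor of NF-kappaB (1.41 and 4.35), the protease inhibitor Serpina3g (1.26 and 1.84), the lymphocyte receptor Klrg1 (1.21 and 1.39) and the macrophage lectin Clec10a (0.96 and 1.89). Nccrp1, Mgl2, Chil1, Fabp5 and Clec10a were picked after their values were seen.

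Of the 6 shared genes that fell, Cd163l1, a scavenger receptor of gamma-delta T cells, fell most in both tissues. It stood at 3.56, 3.05, 2.55, 4.06 and 6.76 CPM in WT lungs, 1.16, 0.619, 0.748 and 0.566 CPM in Mem+Sol lungs, 4.45, 2.60, 1.04, 1.07 and 0.913 CPM in WT ilea, and from 0.119 over 0.167 to 0.666 CPM in Mem+Sol ilea. All Mem+Sol libraries lay below all WT libraries of their tissue. The effects were -2.37 ± 0.37 and -3.38 ± 0.47 (difference 1.11 ± 0.60, adjusted p = 0.211), and the lung call was lost without lung Mem+Sol replicate 4 or WT replicate 2 (adjusted p = 0.0747 and 0.0592). The adenylate cyclase Adcy8 was at -0.71 and -1.25, the mitochondrial transhydrogenase Nnt at -0.60 and -0.72, and Zswim5 at -0.65 and -1.43, with a called difference for Zswim5 only (0.79, adjusted p = 0.0224) among these 4 genes. That difference was lost under 6 alternatives, among them either lung batch alone. The lung call was lost under 5 alternatives for Zswim5 and 3 for Adcy8, and the ileum call of Nnt under 6.

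**Figure D2:**
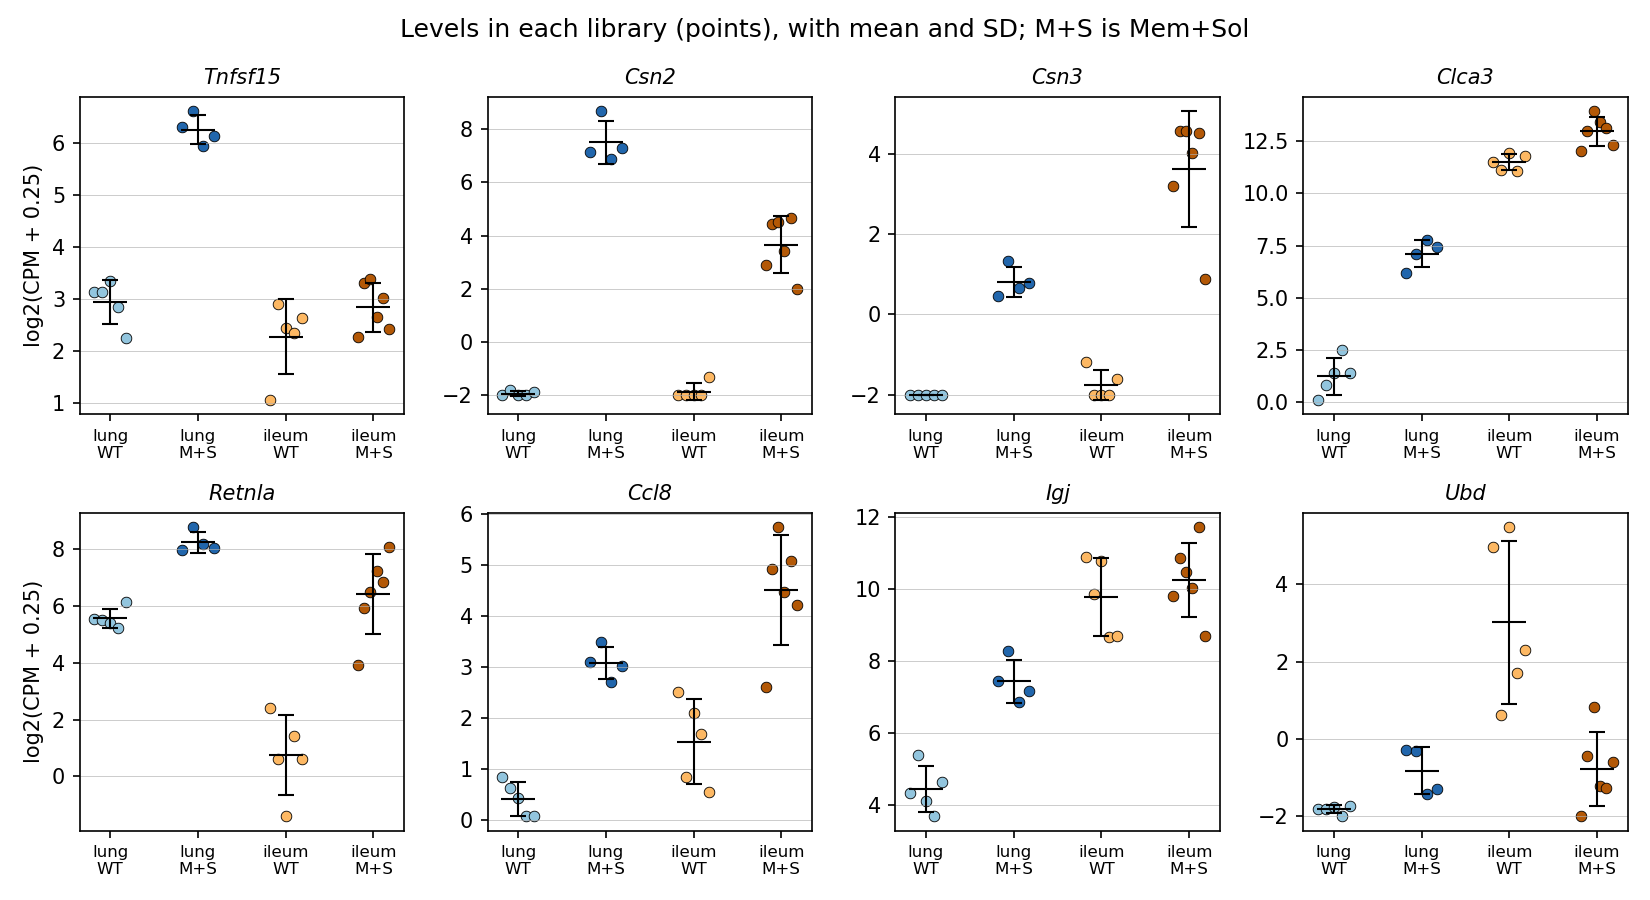
Level of 8 genes in each library as log2(CPM + 0.25), 1 point per library, with the mean and SD of the 4 groups. Csn2, Csn3, Clca3, Retnla and Ccl8 separate Mem+Sol (M+S) from WT in both tissues, Tnfsf15 and Igj in the lung, and Ubd is higher in Mem+Sol lungs and lower in most Mem+Sol ilea.

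The 24 opposite genes were mostly genes that fell in the lung and rose in the ileum (19 of 24). Lama1, a laminin chain of basement membranes, stood at 3.27, 2.64, 4.16, 3.21 and 4.58 CPM in WT lungs and 1.49, 1.11, 1.62 and 1.04 CPM in Mem+Sol lungs. In the ileum it stood at 5.02, 2.08, 3.13, 3.42 and 3.19 CPM in WT and from 5.05 over 8.60 to 12.6 CPM in Mem+Sol. The groups did not overlap in either tissue, and the effects were -1.40 ± 0.25 and 1.17 ± 0.29 (difference -2.55 ± 0.41, adjusted p = 0.000214; -2.83 with lung batch 1 alone and -2.29 with batch 2 alone). The complement regulator Cd59a (-0.87 and 1.56), the endothelial repressor Bcl6b (-1.10 and 1.15) and the matrix protease Adamts1 (-0.81 and 0.79) moved in the same directions, though none of these 3 had the difference called with lung batch 1 alone. So did the smooth muscle protein Smtn (-0.56 and 1.71), the actin-binding Palld (-0.63 and 1.92) and the laminin chain Lama4 (-0.48 and 1.24), picked after their values were seen. Unlike those of Lama1, the groups overlapped in both tissues for Bcl6b and Adamts1, and in the ileum for Cd59a. The lung call was lost under 9 alternatives for Bcl6b, 8 for Adamts1 and 4 for Cd59a. For Cd59a the difference was not called with lung batch 2 alone either (adjusted p = 0.0558).

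The water and glycerol channel Aqp3 rose in the lung and fell in the ileum. It stood at 1.78, 1.47, 1.23, 1.40 and 1.48 CPM in WT lungs and 3.12, 3.87, 3.06 and 4.09 CPM in Mem+Sol lungs, and at 2.90, 33.5, 2.74, 12.5 and 2.81 CPM in WT ilea and from 0.273 over 0.691 to 1.98 CPM in Mem+Sol ilea. No groups overlapped, and the difference was 4.24 ± 0.95 (adjusted p = 0.00305), but 4.20 and 4.17 with lung batch 1 or 2 alone (adjusted p = 0.112 and 0.117). Its lung call was lost under 9 alternatives, among them leaving out Mem+Sol replicate 4 or WT replicate 2, 3, 4 or 5. Ubd, an interferon-induced ubiquitin-like modifier, had the largest difference of the opposite genes named by rule, 7.99 ± 2.20 (adjusted p = 0.0129), but reached at most 0.564 CPM in any of these lungs. Its difference was not called without ileum WT replicate 1 (6.81, adjusted p = 0.0517), a library at 31.2 CPM. The inflammatory caspase Casp1 was at 0.50 and -1.08. No gene was opposite without lung Mem+Sol replicate 4 or without lung WT replicate 2, and the count was 5 and 13 when WT replicate 5 or 4 was left out, and 16, 42 and 73 when Mem+Sol replicate 3, 1 or 2 was.

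Among the 16 lung-only genes, 10 rose and 6 fell, with Tnfsf15, Igj and Ccr4 the largest rises among those named by rule. Igj, the J chain of secreted antibodies (chr5:88519809-88527897), stood at 19.9, 42.4, 17.2, 12.8 and 25.1 CPM in WT lungs and at 174, 311, 118 and 144 CPM in Mem+Sol lungs. In the ileum it stood at 1898, 935, 1752, 412 and 415 CPM in WT and from 415 over 1236 to 3379 CPM in Mem+Sol. The lung groups were apart, and the ileum groups overlapped over most of their range. The effects were 2.84 ± 0.38 and 0.17 ± 0.47 (difference 2.68 ± 0.64, adjusted p = 0.00527). With lung batch 1 alone the difference was 3.53 (adjusted p = 0.0457) and with batch 2 alone 2.09 (adjusted p = 0.216). Without lung Mem+Sol replicate 4 the lung effect was 2.77 (adjusted p = 0.0744).

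Of 9 tested plasma cell and antibody transport genes, 2 had a higher lung effect (6.55% of all genes) and none a lower one. The 2 were Igj and Sdc1, a proteoglycan that fell in the ileum. Ccr4, a chemokine receptor of type 2 and regulatory T cells, stood at 0.792, 0.960, 1.44, 1.37 and 1.25 CPM in WT lungs and at 3.88, 6.31, 3.71 and 4.65 CPM in Mem+Sol lungs. In the ileum it ran from 0.304 to 3.39 CPM in WT and from 0.119 over 1.27 to 2.25 CPM in Mem+Sol, with wide overlap. Its difference, 2.36 ± 0.79 (adjusted p = 0.0387), was not called under 14 of 33 alternatives, among them either lung batch alone. Other lung-only genes that rose were the matrix protein Podnl1 (log2 1.27 in the lung and -0.39 in the ileum), the glucose transporter Slc5a1 (0.76 and -0.31), the lymphocyte receptor Cd48 (0.55 and -0.45) and the inhibitor of differentiation Id2 (0.51 and -0.35). The lung call was lost under 13 alternatives for Slc5a1, among them leaving out any 1 WT lung, and under 10 for Cd48, and the difference under 9 and 4. Neither lung batch alone called the difference of these 4 genes, nor that of Fat4 or Arhgap28. The protocadherin Fat4 (-0.81 and 0.59) and Arhgap28, a GTPase-activating protein (-0.75 and 0.45), were among those that fell. Without lung Mem+Sol replicate 4 the 1 lung-only gene left was 1 of the 16, and the counts were 4, 7 and 10 when WT replicate 2, 5 or 4 was left out, and 10, 24 and 37 when Mem+Sol replicate 3, 1 or 2 was.

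T cell genes rose in the lung, but most had no called difference from the ileum. Of 15 tested genes of T cell activation, 5 rose in the lung (the lung background was 0.517% for a rise). In the ileum 1 of 13 rose (16.6% of all genes) and 1 fell (12.1%). Those that rose in the lung were Foxp3, the factor of regulatory T cells (2.11 in the lung and 1.10 in the ileum), the checkpoint receptor Ctla4 (2.27 and 0.85), the costimulatory receptors Tnfrsf4 (1.41 and 0.67) and Tnfrsf18 (0.59 and 0.25), and the coreceptor Cd4 (0.95 and -0.07). None of these 5 had the tissue difference called (adjusted p from 0.0943 to 0.484), so no lung-specific effect was shown. The 1 member with a called difference was Cd3e, of the T cell receptor complex, at 0.52 in the lung and -1.70 in the ileum (difference 2.22, adjusted p = 0.0249). The count of such members was 0 without ileum Mem+Sol replicate 6, ileum WT replicate 1, lung Mem+Sol replicate 4 or lung WT replicate 2, and 2 without ileum Mem+Sol replicate 1 or 2 or ileum WT replicate 4 or 5. Genes of class II antigen presentation rose in 4 of 10 members in the lung and in none in the ileum, with medians of 0.54 and -0.71, and the difference was called for H2-Ab1 alone (1.34, adjusted p = 0.0345). That count was 0 without ileum Mem+Sol replicate 1, 4 or 6, ileum WT replicate 1 or 3, lung Mem+Sol replicate 1 or 4, or lung WT replicate 2, 3 or 5, and 4 or 5 without ileum Mem+Sol replicate 2 or 3 or ileum WT replicate 4 or 5.

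Of the 133 genes called in the lung, 15 were too low to be tested in the ileum. Besides Amtn they included the chemokine Ccl20 (log2 3.14 in the lung) and its receptor Ccr6 (1.37), the mucin sialyltransferase St6galnac1 (2.65), and the ligands Tnfsf11 (1.83) and Tnfsf8 (1.10). These 6 genes were picked after their values were seen.

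Cytotoxic lymphocyte genes were lower in Mem+Sol than in WT ileum and were not called in the lung. Of 12 genes tested for the difference, 10 had a higher lung effect (6.55% of all genes did). None of the 12 was called in the lung, and all 6 that could be tested in the ileum fell there (12.1% of ileum genes fell). Cd8a, the coreceptor of cytotoxic T cells, stood at 24.8, 7.53, 16.7, 4.49 and 10.3 CPM in WT ilea and from 1.12 over 1.24 to 2.09 CPM in Mem+Sol ilea, without overlap. In the lung it ran from 11.5 to 16.9 CPM in WT and from 11.1 to 16.9 CPM in Mem+Sol. The difference was 3.32 ± 0.48 (adjusted p = 9.04e-05). The receptor Klrd1 (2.81), granzyme B, Gzmb (3.23), and granzyme A, Gzma (3.10), also differed. Without ileum WT replicate 1, which was the highest for Cd8a, the count was 5 of 12. The summed level of the list ran from 53.4 to 224 CPM in WT and from 14.8 to 46.6 CPM in Mem+Sol ilea.

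Ccl5, a chemokine of cytotoxic cells, fell in the ileum from 83.0, 9.60, 40.9, 16.4 and 10.9 CPM in WT to a range of 1.25 to 4.33 CPM (median 2.30) in Mem+Sol. In the lung it was at 25.8, 23.5, 21.1, 29.8 and 26.2 CPM in WT and 60.9, 33.6, 33.0 and 46.3 CPM in Mem+Sol. The groups were apart in both tissues and in opposite order, the lung effect was not called (0.80 ± 0.18, adjusted p = 0.0536), and the difference was 4.56 ± 0.73 (adjusted p = 0.000214). Of 14 genes of type 1 and interferon responses, 6 had a higher lung effect (6.55% of all genes) and none a lower one. The chemokine Cxcl9 was at 1.88 in the lung and -1.97 in the ileum (difference 3.87, adjusted p = 0.00409).

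Of 11 type 2 lymphocyte genes tested in each tissue, Klrg1 was the 1 that rose in the lung and 8 rose in the ileum. Over all genes 0.517% and 16.6% rose. The difference was called for 3 of 13, all with a lower lung effect, which 11.6% of all genes had. That count was 5 without ileum Mem+Sol replicate 1 or ileum WT replicate 3. Il1rl1, the IL-33 receptor, stood at 7.15, 5.45, 8.09, 7.27 and 9.74 CPM in WT ilea and from 50.8 over 146 to 321 CPM in Mem+Sol ilea, and at 5.25, 11.2, 5.78, 4.46 and 8.68 CPM in WT and 8.76, 16.7, 11 and 14 CPM in Mem+Sol lungs. The ileum groups were apart and the lung groups overlapped (difference -3.61 ± 0.63, adjusted p = 0.000459). The transcription factor Rora (-1.53) and the IL-25 receptor Il17rb (-2.27) were the others. Il33, the ligand of Il1rl1, was at -0.03 in the lung and 2.20 in the ileum (difference -2.25, adjusted p = 0.0436).

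Of 20 genes in the IL-4 and IL-13 response, 5 had a lower lung effect and 1 a higher one. Over all genes 11.6% had a lower lung effect and 6.55% a higher one. In the ileum 11 of 18 rose and 1 fell, in the lung 2 of 19 rose, and the medians were 2.01 and 0.65. Over all genes 16.6% rose and 12.1% fell in the ileum, and 0.517% rose in the lung. The summed levels were apart in the lung, at 564 to 834 CPM in WT and 1149 to 3510 CPM in Mem+Sol. In the ileum they overlapped, at 8047 to 12537 CPM in WT (median 10944) and 7473 to 19832 CPM in Mem+Sol (median 7995). This list counts the row deposited as Clca1 and not the row deposited as Clca3, which is the gene RefSeq now names Clca1. The goblet cell product that rose in both tissues is therefore left out of these counts and sums. Which gene the row deposited as Clca1 holds was not checked. Ccl24, an eosinophil chemokine, was at most 0.789 CPM in any lung of either group and in WT ileum, and from 4.56 over 30.5 to 65.7 CPM in Mem+Sol ilea (difference -6.56, adjusted p = 0.00184). Arg1, the arginase of alternatively activated macrophages, rose in the ileum (4.83 ± 1.10), a call lost without ileum Mem+Sol replicate 4, the library at 79.2 CPM (2.97, adjusted p = 0.0521). Fcgbp, a mucus protein, was the member with the higher lung effect. It stood at 4.36, 3.60, 5.44, 5.02 and 5.96 CPM in WT lungs and 8.60, 16.9, 18.4 and 20.0 CPM in Mem+Sol lungs, and at 5914, 8313, 8134, 6108 and 8383 CPM in WT ilea and from 1546 over 2165 to 3632 CPM in Mem+Sol ilea. The groups were apart in both tissues and in opposite order, although the lung effect was not called (1.57, adjusted p = 0.0632), and the difference was 3.21 (adjusted p = 5.78e-05).

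Eosinophil, mast cell and neutrophil genes had lower lung effects where the difference was called: 4 of 7, 6 of 11 and 5 of 11. Over all genes 11.6% had a lower lung effect. The neutrophil count was 3 without ileum WT replicate 1 or 5, lung Mem+Sol replicate 1, 2 or 4, or lung WT replicate 5. The eosinophil lectin Siglec5, now Siglecf, differed by -2.57, the mast cell protease Mcpt4 by -5.83 and the neutrophil receptor Cxcr2 by -5.23. Summed levels in the ileum ran from 5.97 to 12.7 CPM in WT and 43.7 to 157 CPM in Mem+Sol for eosinophil genes, from 59.5 to 110 and 162 to 599 CPM for mast cell genes, and from 8.66 to 24.8 and 32.7 to 169 CPM for neutrophil genes. In the lung the corresponding ranges overlapped between the groups.

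Tuft cell genes, of which most encode parts of taste signalling and eicosanoid synthesis, had a lower lung effect in 10 of 16 members and a higher one in none. A lower lung effect was called for 11.6% of all genes. In the ileum 15 of 16 rose (16.6% of all genes), and in the lung 1 of 12 (0.517%). That 1 was the cyclooxygenase Ptgs1 (0.39 against 1.10 in the ileum). Alox5ap, which presents arachidonic acid to 5-lipoxygenase, stood at 7.73, 6.49, 6.79, 5.67 and 7.99 CPM in WT ilea and from 40.3 over 62.7 to 88.0 CPM in Mem+Sol ilea. In the lung it stood at 56.5, 51.2, 53.4, 66.0 and 65.3 CPM in WT and 71.3, 59.1, 73.8 and 78.2 CPM in Mem+Sol, with overlap. Its difference was -2.88 ± 0.39 (adjusted p = 5.78e-05), Alox5 was at -3.10 and the channel Trpm5 at -3.49. Summed over the list, the ileum went from 128 to 194 CPM in WT to 496 to 841 CPM in Mem+Sol. The lung sums ran from 268 to 302 CPM in WT and from 329 to 371 CPM in Mem+Sol, also without overlap.

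**Figure D3:**
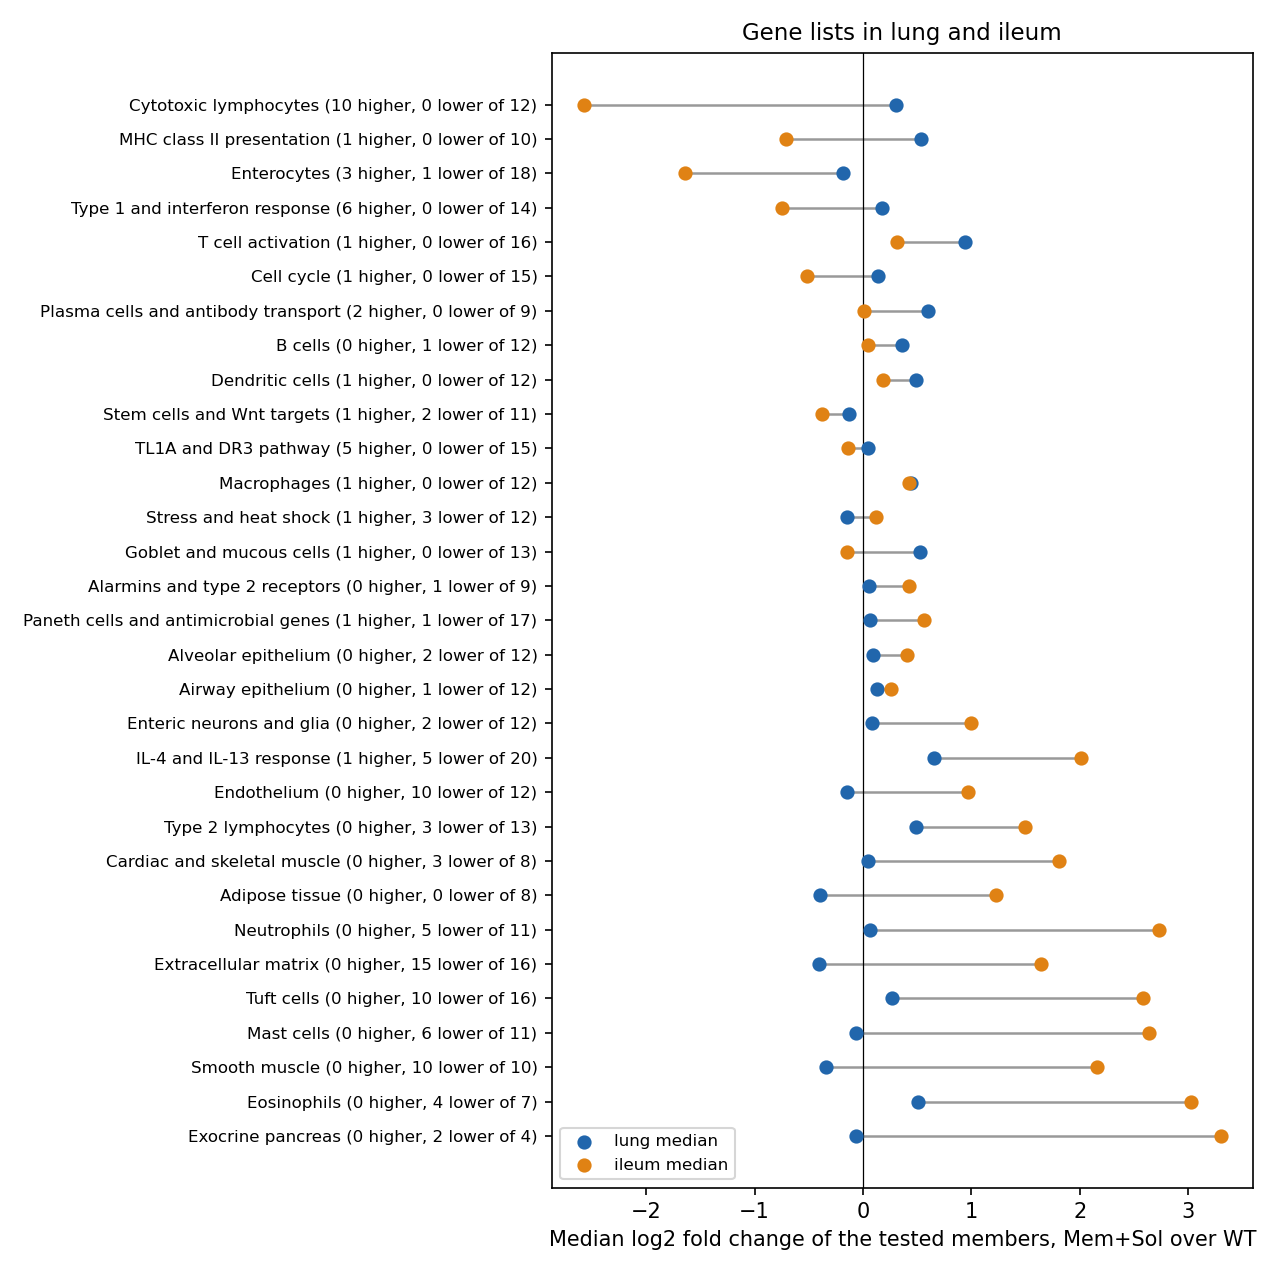
Median log2 fold change of Mem+Sol over WT of each gene list with at least 3 members tested in both tissues, in the lung and in the ileum, with the number of members whose lung effect was called higher or lower than the ileum effect. Tuft, smooth muscle, matrix and granulocyte lists have ileum medians far above their lung medians, and the cytotoxic list has an ileum median of -2.57 against 0.31 in the lung.

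Genes of the gut wall moved in the ileum pieces together with these lists. Smooth muscle genes had a lower lung effect in 10 of 10 members, extracellular matrix genes in 15 of 16 and endothelial genes in 10 of 12. Among all genes 11.6% had a lower lung effect. Actg2, the actin of visceral smooth muscle, stood at 268, 255, 197, 344 and 395 CPM in WT ilea and from 917 over 2149 to 10178 CPM in Mem+Sol ilea. In the lung it stood at 23.4, 27.7, 21.8, 35.2 and 31.5 CPM in WT and 25.3, 26.5, 13.5 and 18.2 CPM in Mem+Sol (difference -4.28 ± 0.62, adjusted p = 9.85e-05). Fibronectin, Fn1, differed by -3.24 and the endothelial adhesion molecule Pecam1 by -1.52. The median effects in lung and ileum were -0.34 and 2.16 for smooth muscle, -0.41 and 1.64 for matrix and -0.15 and 0.97 for endothelium. With lung batch 1 alone and batch 2 alone the counts of members with a lower lung effect were 3 and 5 for smooth muscle, 2 and 9 for matrix, 0 and 0 for endothelium and 5 and 6 for tuft cells, and those with a higher one 3 and 2 for cytotoxic lymphocytes. The calls over all genes were then 173 and 333.

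Summed levels of wall and border markers separated the ileum groups. Smooth muscle genes summed to 2944 to 6642 CPM in WT and 12603 to 60570 CPM in Mem+Sol ilea, matrix genes to 2063 to 4385 and 5564 to 13735 CPM, and endothelial genes to 131 to 348 and 474 to 633 CPM. Enterocyte genes summed to 23493 to 45869 CPM in WT and 7905 to 16878 CPM in Mem+Sol ilea, and 12 of 18 fell and 1 rose. Among all ileum genes 12.1% fell and 16.6% rose. Exocrine pancreas genes, of which Cela1, Pnliprp1 and Clps rose (3 of 3 tested), summed to 130 to 316 and 828 to 3045 CPM, with 1 of 10 members at 0 in every library of each ileum group. No member of the smooth muscle, matrix, endothelial or enterocyte lists was at 0 in all libraries of an ileum group. Enteric neuron and glia genes rose in 6 of 12 members, with overlapping sums. In the lung the smooth muscle sums were 1281 to 1626 CPM in WT and 910 to 1401 CPM in Mem+Sol. These lists moved with genotype beside every ileum result given here, and the part of tissue composition in those results was not tested.

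Of the 2550 ileum-only genes, 1649 rose and 901 fell. Tnnt3, a troponin of fast skeletal muscle, had the largest tissue difference among the ileum-only genes named by rule. It stood at 0.387, 0.260, 0, 0.214 and 0.152 CPM in WT ilea and from 13.8 over 39.6 to 214 CPM in Mem+Sol ilea, and between 1.81 and 2.67 CPM in every lung of both groups (difference -8.64 ± 1.02, adjusted p = 1.64e-05). Grp, the gastrin-releasing peptide of neurons and endocrine cells, differed by -5.75, the GTPase Rab44 by -5.14 and the neuronal adhesion protein Opcml by -4.90. Anxa8, an annexin of squamous epithelia, differed by -4.68, and by -1.85 (adjusted p = 0.173) without ileum Mem+Sol replicate 4, which stood at 101 CPM against 0.529 to 10.0 CPM in the other 5.

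The ileum-only falls named by rule included Reg3g, Slc5a12, Mme, Slc47a1 and Plb1. Reg3g, a bactericidal lectin, stood at 3212, 611, 2953, 4937 and 3645 CPM in WT ilea and from 32.8 over 125 to 159 CPM in Mem+Sol ilea, without overlap. In the lung it stood at 13.9, 8.81, 20.4, 11 and 24 CPM in WT and 41.4, 15.8, 37.6 and 52.1 CPM in Mem+Sol (1.15 ± 0.41, adjusted p = 0.194). The difference was 5.76 ± 1.13 (adjusted p = 0.00119), and was not called with either lung batch alone (4.74 and 6.57, adjusted p = 0.136 and 0.0545). Its list, Paneth cell and antimicrobial genes, went both ways in the ileum: 4 of 17 rose (16.6% of all genes) and 5 fell (12.1%). The list had a median of 0.56 and sums of 18475 to 26572 CPM in WT and 19510 to 63760 CPM in Mem+Sol. The lactate transporter Slc5a12 differed by 5.31, the peptidase Mme by 3.97 and the cation extruder Slc47a1 by 3.45, with the ileum groups apart for all 3. Plb1, a brush border phospholipase, rested on ileum WT replicate 2, at 1346 CPM against 0.387 to 8.62 CPM in the other WT ilea, and its difference went from 7.5 to 1.33 (adjusted p = 0.278) without that library.

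**Figure D4:**
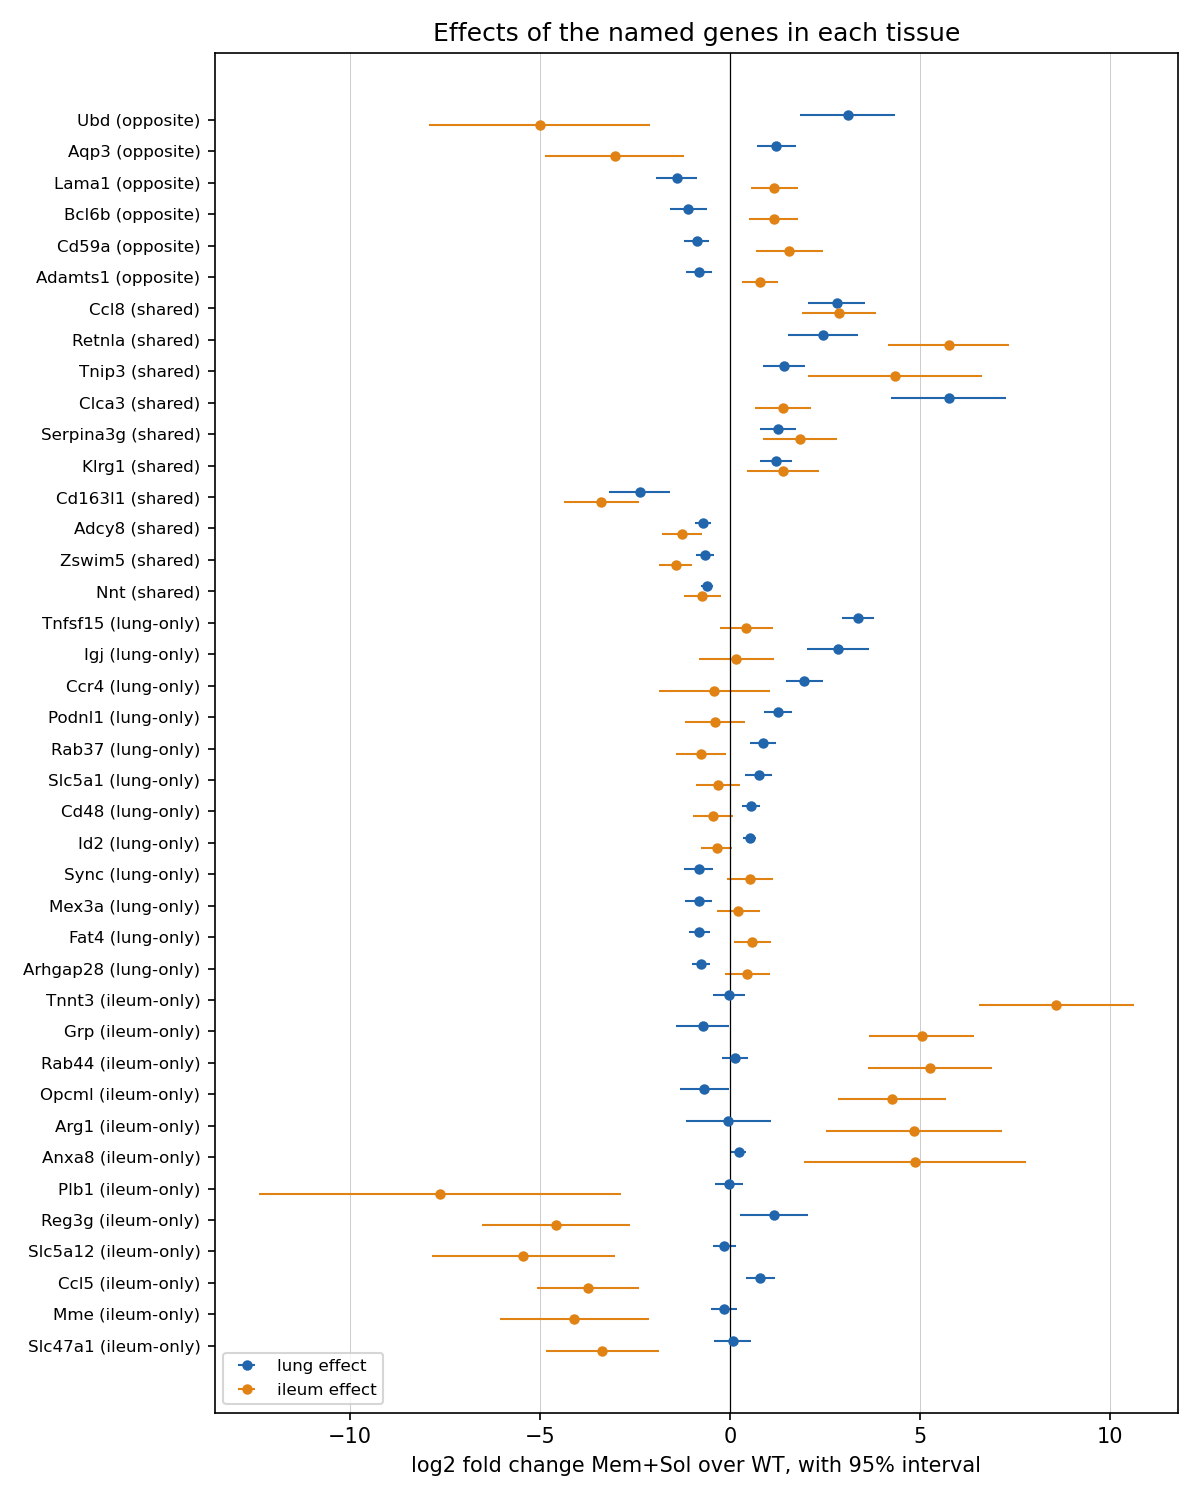
Log2 fold change of Mem+Sol over WT with its 95% interval in the lung and in the ileum for the genes named by rule, without the caseins and Tnfrsf25. Intervals of the ileum are the wider for most genes. The lung effects of ileum-only genes run from -0.71 (Grp) to 1.15 (Reg3g), with the intervals of Reg3g, Ccl5 and Anxa8 above 0 and those of Grp and Opcml below it, and the intervals of Lama1, Aqp3 and the other opposite genes lie on either side of 0 in the 2 tissues.

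The tissue difference of Mem+Sol was also set against that of Mem, which shares the same WT libraries. For Mem 1388 of 16867 genes had the tissue difference called (8.23%; 3.56% with the lung effect higher and 4.67% with it lower). In the test of the 2 differences against each other edgeR called 0 genes, and no other tool was run on it. Of the 16867 genes, 1933 were at an unadjusted p under 0.05 in that test, and the lowest adjusted p was 0.0544. The 0 calls therefore do not show that the 2 differences were alike. For Tnfsf15 the tissue difference was 1.69 in Mem and 2.92 in Mem+Sol, 1.23 ± 0.35 apart (adjusted p = 0.194). For Retnla it was 0.13 in Mem and -3.29 in Mem+Sol, -3.42 ± 0.80 apart (adjusted p = 0.127).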

How the data were processed

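RNA from lung and ileum was sequenced as poly(A) libraries. The deposited values are whole-number counts per gene symbol, 1 table for each tissue, that the authors made with CASAVA, TopHat2 and the mm10 build, per the submitters' processing notes; the sources used here do not give the counting tool, annotation or strand setting. Overlapping and near-identical genes are therefore uncertain. The tables shared 24035 of 24062 symbols; 27 ileum symbols had turned into dates and were left out.

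Counts were analysed with edgeR 4.0.16 in R 4.3.3 (filterByExpr, TMM, robust quasi-likelihood). The lung fit had genotype, sex and batch as terms, the ileum fit genotype and sex, and the joint fit of 30 libraries sex within tissue and lung batch. CPM used TMM library sizes, and calls needed a Benjamini-Hochberg adjusted p under 0.05. A prior count of 2 entered only log2 CPM values used to look over the libraries. The fold changes fitted by edgeR kept its default prior count. A ± beside a log2 fold change is its standard error. Alternatives included DESeq2 1.42.0, limma 3.58.1, other terms, thinned counts and leaving out each library. The scripts were tested on simulated data. Named genes were Tnfsf15, Tnfrsf25 and, without immune receptor segments and unnamed gene models, up to 6 opposite genes, 8 shared genes that rose and 4 that fell by the smaller effect of the 2 tissues, up to 8 lung-only genes that rose and 4 that fell by lung effect, up to 6 ileum-only genes per direction by tissue difference (a mean log2 CPM of at least 1 was needed for the last 2 classes), and up to 3 genes per list by the adjusted p of the difference. Any other gene was picked after its values were seen. The members and lists were chosen with earlier results of these data known.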

Additional observations from a re-analysis of the deposited data

Results flagged for a closer look

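Among 171 groups of 4 to 6 libraries over the 43 genes named by rule, 7 held a library far from the rest, where chance gives about 1 in 20. Csn2 was at 0.152 CPM in ileum WT replicate 5 against 0 in the others, Csn3 at 1.60 CPM in ileum Mem+Sol replicate 6 against 8.99 to 23.6, and Tnip3 at 5.88 CPM in lung Mem+Sol replicate 2 against 3.93 to 4.05. Cd163l1 was at 0.666 CPM in ileum Mem+Sol replicate 5 against 0.119 to 0.224, and Zswim5 at 6.48 CPM in ileum Mem+Sol replicate 6 against 9.32 to 10.5. Grp was at 9.60 CPM in lung WT replicate 2 against 4.42 to 5.08, and Reg3g at 611 CPM in ileum WT replicate 2 against 2953 to 4937.

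The Mem+Sol effect differed between the tissues by edgeR's test of the difference for 1104 genes with the lung effect higher and 1949 with it lower, and for 33 of the named genes. On the log2 scale the lung effect minus the ileum effect was 2.92 for Tnfsf15. Among shared genes it was 4.47 for Clca3, -3.29 for Retnla and 0.79 for Zswim5. Among opposite genes it was 7.99 for Ubd, 4.24 for Aqp3, -2.55 for Lama1, -2.42 for Cd59a, -2.24 for Bcl6b and -1.59 for Adamts1. Among lung-only genes it was 2.68 for Igj, 2.36 for Ccr4, 1.66 for Podnl1, 1.63 for Rab37, 1.07 for Slc5a1, 1.00 for Cd48, 0.87 for Id2, -1.02 for Mex3a, -1.20 for Arhgap28, -1.35 for Sync and -1.38 for Fat4. Among ileum-only genes that rose it was -8.64 for Tnnt3, -5.75 for Grp, -5.14 for Rab44, -4.90 for Opcml, -4.84 for Arg1 and -4.68 for Anxa8. Among those that fell it was 7.5 for Plb1, 5.76 for Reg3g, 5.31 for Slc5a12, 4.56 for Ccl5, 3.97 for Mme and 3.45 for Slc47a1. Among the lung-only genes, Mex3a lost its difference under 19 alternatives and its lung call under 11. Sync lost its lung call under 14 and Rab37 under 5. Neither lung batch alone called the difference of Mex3a, Sync or Rab37.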

How the results depend on the processing

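No called result changed direction under the alternatives run. The sign turned in 115 single-gene values of 34 results, none of them called as reported. Of the single-gene values, 9299 kept their side of the threshold, 556 lost the call and 40 gained it. The tissue difference counted 3053 genes as reported and 3832 with DESeq2, 3282 with limma and a variance term for tissue, 2787 with thinned libraries and, chosen after seeing the data, 3253 as a difference of separate fits. It fell to 173 with lung batch 1 alone and 333 with batch 2 alone, where fewer samples enter. With only the WT and Mem+Sol libraries it was 2263, with 117 genes called in the lung and 3506 in the ileum. There were then 24 shared, 19 opposite, 17 lung-only and 1897 ileum-only genes. Of these, 17, 12, 10 and 1821 were in the same class as reported. Leaving out 1 library gave 2043 to 3731 genes for the difference, 10 to 498 for the lung, 3055 to 4786 for the ileum, 4 to 69 shared, 0 to 73 opposite, 1 to 37 lung-only and 1844 to 3061 ileum-only.

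The lung count of 133 became 633 with DESeq2, 243 without the sex term, 18 without the batch term, 15 with batch 1 alone and 1206 with batch 2 alone. Under these 5 settings in turn there were 104, 46, 7, 5 and 169 shared genes, 134, 40, 0, 1 and 256 opposite genes and 65, 29, 5, 2 and 8 lung-only genes. Not all of them were in the same class as reported. Those that were numbered 28, 26, 7, 3 and 14 shared, 22, 19, 0, 0 and 16 opposite and 15, 13, 5, 2 and 1 lung-only. Ileum-only genes numbered 156 with batch 1 alone and 204 with batch 2 alone. At an adjusted p under 0.01 there were 6 shared, 0 opposite, 2 lung-only and 1209 ileum-only genes, and under 0.10 there were 84 shared, 104 opposite and 56 lung-only. The cause was not tested.

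Whether replicate numbers pair the samples was not settled. Residuals of same-numbered libraries correlated from -0.421 to 0.469 over 9 pairs, with 3 above 0.1. The same-numbered lung libraries all lay in different batches, so these values cannot decide it. With the replicate number as a block, 1919 genes had the tissue difference called, 68 the lung effect, and 16 were shared, 13 opposite, 8 lung-only and 1658 ileum-only. Of the genes in these classes, 12, 4, 7 and 1520 were in the same class as reported.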
